A study of Bos taurus with 21 samples.

Results

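Of the 126 small RNAs listed for milk vesicles in this series, 88 carry a miRNA name and are not miR-21-5p, and these 88 named miRNAs are described here. They were chosen by name: every listed entry whose name contains miR or let, with any species prefix, apart from bovine miR-21-5p. Earlier results of these data were known when this choice was made. The prefix is bovine for 78 of them, human for 7, mouse for 2 and pig for 1. The other entries are miR-21-5p and 37 provisional small RNAs with no miRNA name.

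The vesicles, membrane-bound particles released by cells, came from the milk of 21 cows (Bos taurus). Each cow gave 1 library, and the groups were 7 healthy cows, 7 with subclinical mastitis, an udder inflammation that cannot be seen, and 7 with clinical mastitis, its overt form. The labels give no breed, age, lactation stage, pathogen or cell count, and they do not say how the vesicles were isolated. Levels are in RPM, which here means the share of a library's listed reads times 1000000. The steps between values imply 954 to 9587 listed reads per library, so 1 read was worth 104.3 to 1048 RPM, and that depth limits each statement below.

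miRNAs are short RNAs cut from hairpin precursors that guide Argonaute proteins to messenger RNAs, which they repress. The seed, a stretch near the 5′ end, largely sets the targets, and miRNAs with the same seed are grouped as a family. Several families are transcribed as clusters of neighbouring hairpins. Milk carries miRNAs in vesicles and fat globules, many of them made by the mammary epithelium, and let-7, miR-30, miR-26 and miR-148 members are commonly reported among them.

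One library stood apart from the other 20 and sets most values. Most results are therefore given with and without it, or for it and the other libraries apart. Subclinical 4 held 218 reads of named miRNAs among 2994 listed reads (7.28%, with an exact Clopper-Pearson interval at 95% of 6.38% to 8.27%). Together, the other 20 libraries held 75 such reads among 81690 (0.0918%). Thus 74.4% of the named-miRNA reads came from a library with 3.54% of the listed reads. Its rate was 79.3 times that of the other 20 pooled (exact 95% interval from the split of the reads, 60.7 to 105). Intervals and detection limits here cover counting error only.

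Subclinical 4 did not stand apart in depth or in its most abundant provisional entry. Its 2994 listed reads lie within the range of the other subclinical libraries, 1785 to 4979. Its leading provisional entry took 28.99% of the reads, against 24.01% to 33.0% in the other 6 subclinical libraries. It also held 163 reads of miR-21-5p, where the other 6 subclinical libraries held 11 together, healthy libraries 5 and clinical libraries 0. What sets this library apart was not tested.

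**Figure D1:**
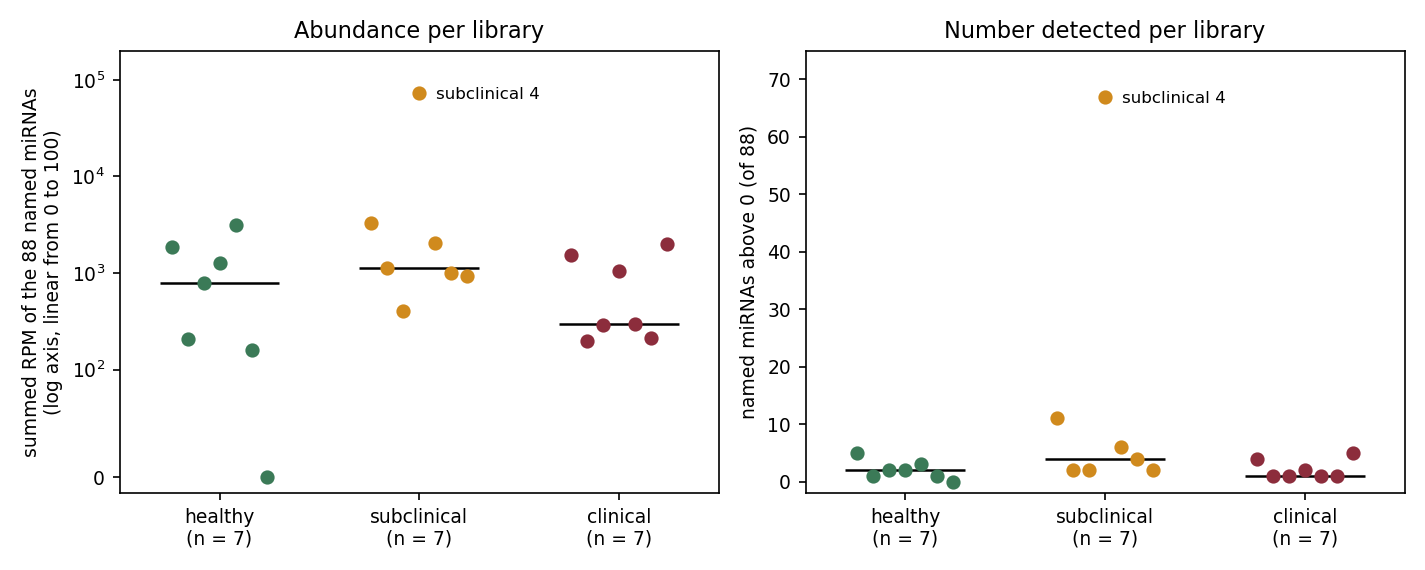
Summed RPM of the 88 named miRNAs (left, log axis that is linear from 0 to 100) and the number of them above 0 (right) in each library, by group; points are libraries and lines are group medians. Subclinical 4 lies at 72812 RPM with 67 miRNAs, while the other 20 libraries lie between 0 and 3297 RPM with 0 to 11 miRNAs.

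In healthy libraries the named miRNAs summed to between 0 RPM in healthy 9 and 3145 RPM in healthy 5, with a median of 785 RPM. The healthy 5 value rests on 3 reads, because that library is the shallowest. In clinical libraries the sum ran from 201 to 1996 RPM with a median of 297 RPM. In subclinical libraries it ran from 402 to 72812 RPM with a median of 1120 RPM, and without subclinical 4 the highest was subclinical 1 at 3297 RPM. Without subclinical 4 the 3 groups overlap. The number of named miRNAs above 0 was 0 to 5 in healthy, 1 to 5 in clinical and 2 to 11 in the other 6 subclinical libraries.

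Pooled over libraries, named miRNAs held 20 reads in healthy milk (624 RPM, exact Poisson 95% interval 381 to 963) and 25 in clinical milk (849 RPM, 550 to 1254). The 6 subclinical libraries other than subclinical 4 held 30 (1485 RPM, 1002 to 2120). With subclinical 4 the subclinical rate was 10694 RPM (9404 to 12111). The healthy interval ends below the start of that for the other 6 subclinical libraries. Like the family intervals below, these intervals leave out the spread between cows, so overlap or its lack does not compare the groups. Single libraries weigh on these pools. Healthy 1 held 8 of the 20 healthy reads, subclinical 1 held 13 of the 30, and clinical 10 held 11 of the 25.

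Detection was sparse. Of the 1848 values of the 88 miRNAs, 123 were above 0, and 71 of these were a single read. Above 0 in 1 library only were 64 miRNAs, in 2 libraries 17, in 3 libraries 5 and in 5 libraries 2, the highest number reached. The 2 most widely detected were miR-30a-5p and let-7b. In all 3 groups, with or without subclinical 4, only 3 of the 88 were above 0: miR-30a-5p, let-7b and miR-2887.

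**Figure D2:**
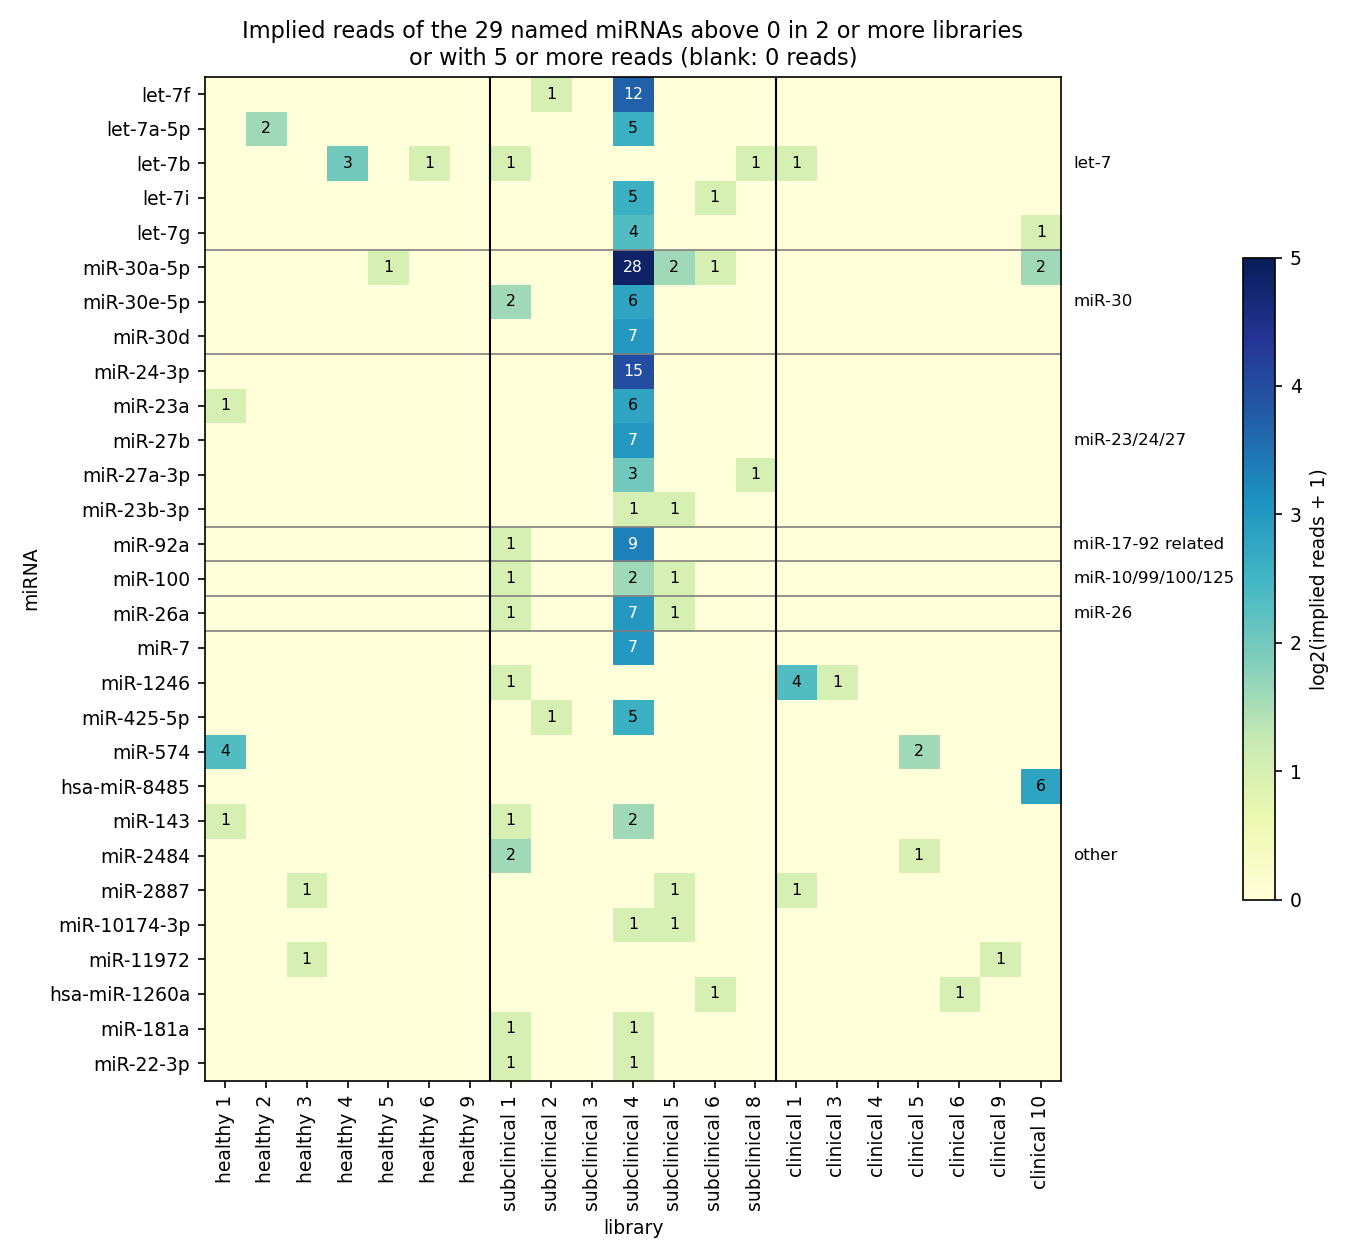
Implied reads in each of the 21 libraries (columns, split by group) for the 29 named miRNAs above 0 in at least 2 libraries or with at least 5 reads (rows, by family list); printed numbers are reads and the colour is log2(reads + 1). The subclinical 4 column holds 21 of the 64 filled cells and 134 of the 196 reads shown, and let-7b, miR-1246, miR-574 and miR-8485 are filled elsewhere and blank there.

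The let-7 family, which promotes differentiation and represses growth genes such as RAS and LIN28, had 6 listed members: let-7a-5p, let-7b, let-7f, let-7g, let-7i and miR-98. Together they held 28 reads in subclinical 4 and 12 in the other 20 libraries. The pooled rate was 187 RPM in healthy (6 reads, 95% Poisson interval 68.7 to 407), 198 RPM in the other subclinical (4 reads, 54.0 to 507) and 67.9 RPM in clinical libraries (2 reads, 8.23 to 245). These intervals overlap, and subclinical 4 lay above all of them at 9352 RPM (6214 to 13516).

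Within the family, let-7b had a different pattern from the others. It held 3 reads in healthy 4 (952 RPM), and 1 read each in healthy 6 (160 RPM), subclinical 1 (254 RPM), subclinical 8 (469 RPM) and clinical 1 (219 RPM), and it was at 0 in the other 16 libraries. Subclinical 4 was one of those 16. The count of 0 there allows up to 1002 RPM (3 reads), while its pooled level in the other 20 libraries was 85.7 RPM. A lower RPM there was therefore not detectable at this depth. Of the named-miRNA reads, let-7b held 7 of 75 in the other 20 libraries and 0 of 218 in subclinical 4. Whether these shares differ was not tested. By contrast let-7f, the leading member, held 12 reads in subclinical 4 (4008 RPM) and 1 read elsewhere, in subclinical 2 (560 RPM). The values of let-7a-5p were 5 reads in subclinical 4 and 2 in healthy 2. Single reads of let-7i in subclinical 6 and of let-7g in clinical 10 stood beside 5 and 4 reads in subclinical 4, and miR-98 held 2 reads there and 0 elsewhere.

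The miR-30 family, which is abundant in epithelia and represses mesenchymal genes such as SNAI1, gave the most reads of the 9 family lists over all libraries, while in the 20 libraries other than subclinical 4 let-7 had more (12 against 8). In subclinical 4 its 4 listed members held 45 reads (15030 RPM, Poisson interval 10963 to 20111), 20.6% of the named-miRNA reads of that library. By member, miR-30a-5p held 28, miR-30d 7, miR-30e-5p 6 and miR-30c 4. In the other 20 libraries the family held 8 reads, a pooled 97.9 RPM (42.3 to 193). Of these, 6 were miR-30a-5p, with 2 reads in subclinical 5 (587 RPM), 2 in clinical 10 (362.9 RPM), and 1 each in subclinical 6 (253 RPM) and healthy 5 (1048 RPM). The remaining 2 were miR-30e-5p in subclinical 1 (507 RPM). By group the pooled family rate was 31.2 RPM in healthy (1 read, 0.790 to 174), 248 RPM in the other subclinical (5 reads, 80.4 to 578) and 67.9 RPM in clinical libraries (2 reads, 8.23 to 245), and these intervals overlap.

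The miR-23, miR-24 and miR-27 miRNAs are cut from paired clusters, miR-23a/27a/24 and miR-23b/27b/24, and miR-27 is known for repressing fat-cell regulators such as PPARG. Their 5 listed members held 32 reads in subclinical 4 and 3 in the other 20 libraries. With 15 reads (5010 RPM), miR-24-3p was second to miR-30a-5p in subclinical 4, and it had 0 reads elsewhere. Its rate there was 136 times that of 3 reads over the other 20 libraries, a ratio that leaves out the counting error of the 15 reads. The reads of miR-27b (7) also fell in subclinical 4 alone. The values of miR-23a were 6 reads there and 1 in healthy 1 (233 RPM), those of miR-27a-3p 3 there and 1 in subclinical 8 (469 RPM), and those of miR-23b-3p 1 there and 1 in subclinical 5 (293 RPM). No member was above 0 in clinical libraries, a count that allows up to 102 RPM (3 reads in the group). The healthy read and the 2 other subclinical reads lie below that limit (31.2 and 99.02 RPM pooled), so no difference between groups was detectable.

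Clusters related to miR-17 and miR-92, which favour cell proliferation and are induced by MYC, had 7 listed members. In subclinical 4 they held 17 reads: 9 of miR-92a, 3 of miR-25, 2 of miR-17-5p, and 1 each of miR-19b, miR-93 and miR-106b. Elsewhere the only reads were 1 of miR-92a in subclinical 1 (254 RPM) and 1 of miR-19a in healthy 5 (1048 RPM). In clinical libraries the list was at 0, which allows up to 102 RPM.

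The list that joins miR-10, miR-99 and miR-100 with miR-125, of which miR-10 genes lie within HOX clusters and miR-125b regulates immune cell development, had 5 listed members. Subclinical 4 held 8 reads, 2 each of miR-10b, miR-100, miR-125a and miR-125b. In addition miR-100 held 1 read in subclinical 1 (254 RPM) and 1 in subclinical 5 (293 RPM), and miR-99b held 1 read in healthy 5. The clinical libraries were at 0, with the limit given above.

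The other family lists were smaller. The miR-26 list, a repressor of EZH2, held 7 reads of miR-26a and 3 of miR-26b in subclinical 4, and miR-26a also held 1 read each in subclinical 1 (254 RPM) and subclinical 5 (293 RPM). Subclinical 4 alone held the reads of miR-16b (2) and miR-15b (1), of miR-29a (2), and of miR-222 (2) and miR-221 (1). The miR-15/16 family restrains the cell cycle, miR-29 represses collagen genes, and miR-221 and miR-222 repress the cell-cycle inhibitor CDKN1B.

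**Figure D3:**
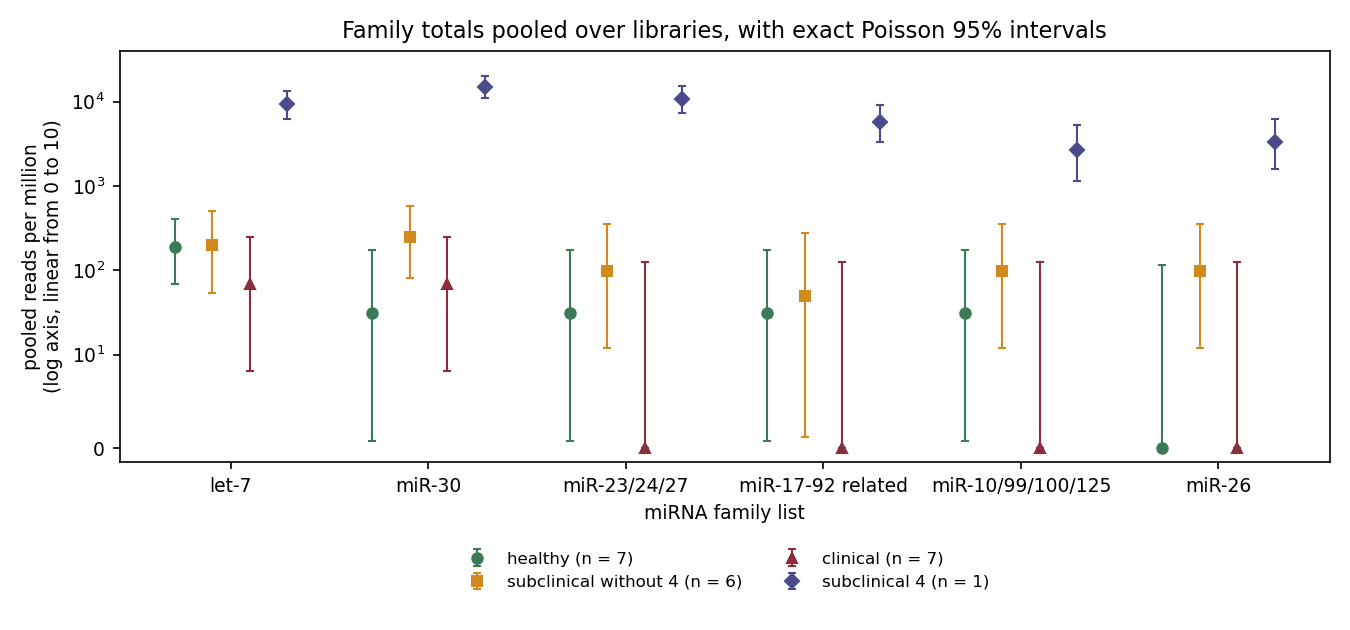
RPM of 6 family lists, pooled over the libraries of each set, with exact Poisson 95% intervals (vertical axis is logarithmic and linear from 0 to 10). Subclinical 4 lies above the upper ends of the other 3 sets in each list, for example at 15030 RPM against 31.2, 248 and 67.9 RPM for miR-30 in healthy, other subclinical and clinical libraries.

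The 5 lists first described, which follow clusters as well as families, hold 27 of the 88 miRNAs. With subclinical 4 included, their pooled subclinical rates were 1380 RPM for let-7, 2156 RPM for miR-30 and 1466 RPM for miR-23/24/27. The rates were 776 RPM for the miR-17 and miR-92 clusters and 431 RPM for the list of miR-10 and miR-125. These 5 lists took 130 of the 218 named-miRNA reads in subclinical 4 (59.6%) and 28 of 75 in the other 20 libraries (37.3%). For miRNAs in none of the 9 lists the shares were 32.1% in subclinical 4 (70 reads, exact 95% interval 25.96% to 38.75%) and 60.0% elsewhere (45 reads, 48.0% to 71.1%). The fold of subclinical 4 over the pooled other 20 libraries was 42.4 for miRNAs outside the lists (28.8 to 63.2). It was 153 for miR-30 (71.6 to 377), 291 for miR-23/24/27 (91.0 to 1485) and 63.7 for let-7 (31.4 to 137). For the lists with fewer reads it was 232 for the miR-17 and miR-92 clusters (55.1 to 2070), 72.8 for the list of miR-10 and miR-125 (17.5 to 426) and 136 for miR-26 (29.1 to 1281). The lists were written with earlier results of these data known, and the intervals treat reads as independent. The shares and folds are therefore a description, and whether the lists differ from the other miRNAs was not tested.

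Outside the lists, the leading miRNAs of subclinical 4 were miR-7, which is enriched in neurons and endocrine cells, with 7 reads, and miR-425-5p, cut from a cluster with miR-191, with 5. Next came miR-182, miR-186 and miR-378 with 4 reads each. Of these, miR-425-5p had 1 read elsewhere, in subclinical 2 (560 RPM), and the others were at 0 in the other 20 libraries. In all, 50 of the 88 miRNAs were above 0 in subclinical 4 alone: 21 with 1 read, 16 with 2 and 13 with at least 3.

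The names seen in the other libraries overlapped in part with those of subclinical 4. The 38 miRNAs above 0 in the other 20 libraries include 17 of the 67 in subclinical 4, which is 44.7% of the 38 and 25.4% of the 67. The other 21 were at 0 in subclinical 4 and held 48 of the 75 reads. Each of these 21 had a pooled level in the other libraries below the 1002 RPM that a count of 0 in subclinical 4 allows. Its absence there therefore cannot be read as a lower RPM. Whether these miRNAs make up a smaller share of the named-miRNA reads there was not tested.

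**Figure D4:**
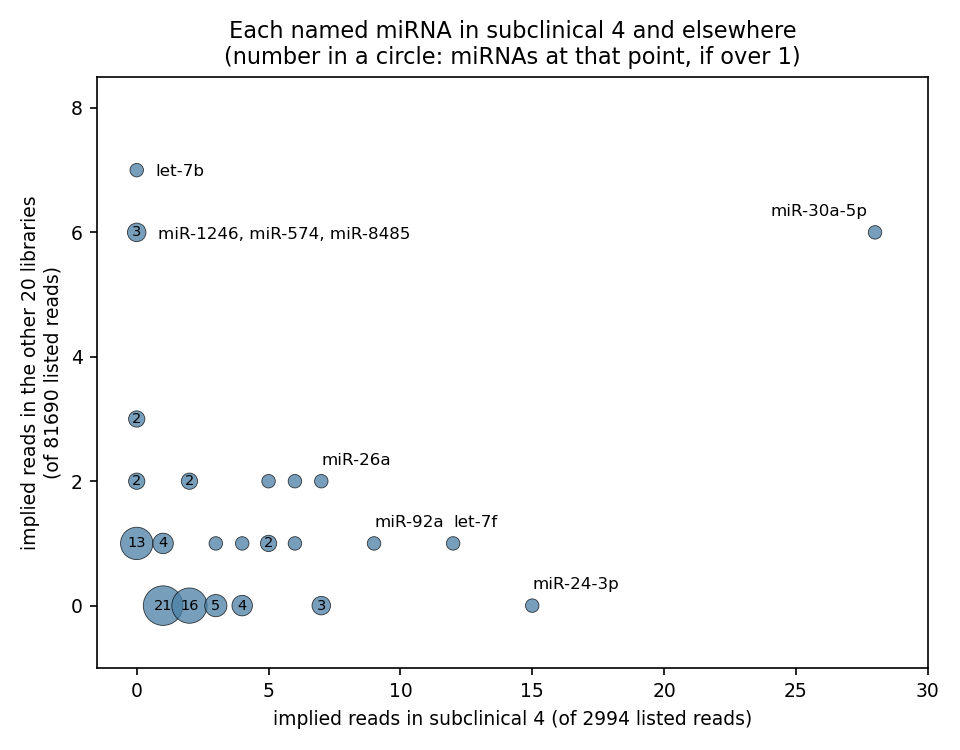
Implied reads of each of the 88 named miRNAs in subclinical 4 (horizontal) and in the other 20 libraries together (vertical); a circle marks 1 or more miRNAs, with their number if over 1. The points hug the axes: miR-24-3p lies at 15 and 0 reads, let-7b at 0 and 7, and miR-30a-5p, at 28 and 6, is the one miRNA with more than 5 reads on both.

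Pooled by group, the share of reads on miRNAs also seen in subclinical 4 had its highest value in the other subclinical libraries. By library the groups overlapped, with 2 of 2 reads in healthy 2 and 0 of 2 in subclinical 3. In the other 6 subclinical libraries, 19 of the 30 named-miRNA reads belonged to miRNAs also above 0 in subclinical 4 (63.3%, exact 95% interval 43.9% to 80.1%). The shares were 5 of 20 reads in healthy libraries (25%, 8.66% to 49.1%) and 3 of 25 in clinical libraries (12.0%, 2.55% to 31.2%). These intervals treat pooled reads as independent and leave out the spread between cows, so they do not compare the groups. Among the clinical reads of miRNAs at 0 in subclinical 4, 6 were miR-8485 in clinical 10 and 4 were miR-1246 in clinical 1. Counted as miRNAs, 14 of 23 in the other subclinical libraries, 4 of 13 in healthy and 2 of 14 in clinical libraries were also above 0 in subclinical 4. Subclinical 1 with 8 reads and subclinical 5 with 6 gave 14 of the 19 subclinical reads. Both held miR-26a and miR-100, and subclinical 1 also held miR-92a, miR-30e-5p, miR-143, miR-181a and miR-22-3p. In clinical libraries all 3 such reads were in clinical 10, 2 of miR-30a-5p and 1 of let-7g.

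**Figure D5:**
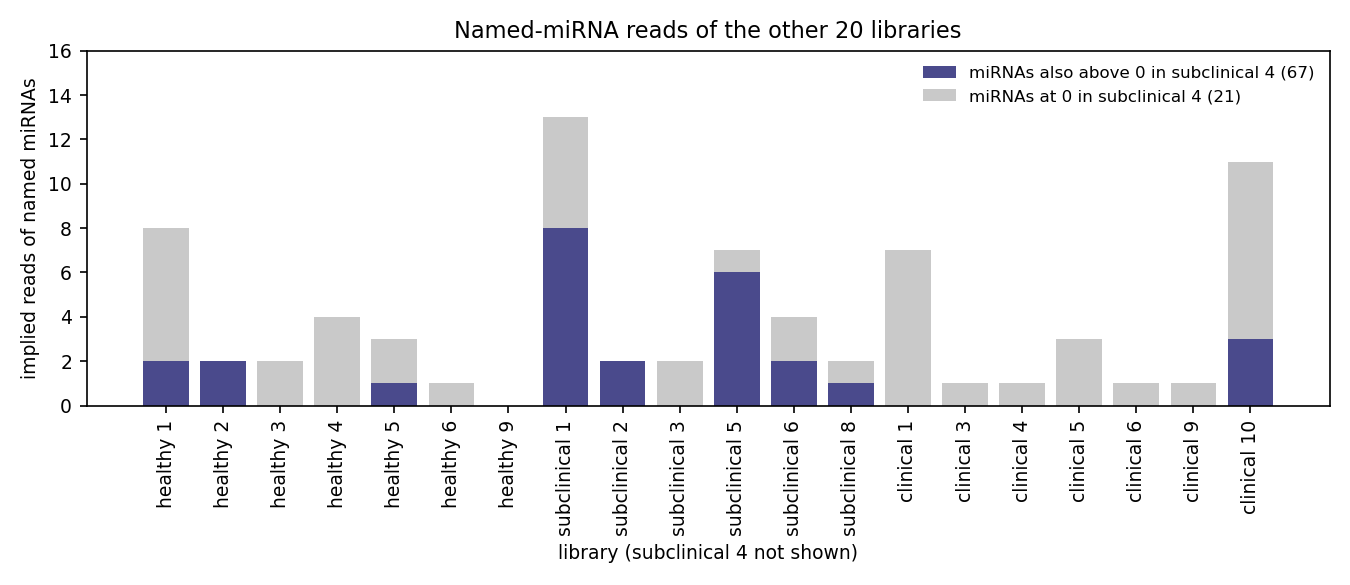
Implied reads of named miRNAs in each of the other 20 libraries, stacked by whether the miRNA was also above 0 in subclinical 4 (dark) or at 0 there (grey). Dark reads number 19 of 30 in subclinical, 5 of 20 in healthy and 3 of 25 in clinical libraries.

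The miRNAs seen outside subclinical 4 only were led by let-7b (7 reads), miR-574, miR-1246 and miR-8485 (6 each). All 6 reads of miR-8485, listed with a human prefix, were in clinical 10 (1089 RPM). The reads of miR-1246, whose human sequence resembles a fragment of U2 small nuclear RNA, were 4 in clinical 1 (876 RPM), 1 in clinical 3 (201 RPM) and 1 in subclinical 1 (254 RPM). It was at 0 in all 7 healthy libraries, which allows up to 93.6 RPM (3 reads in the group). The reads of miR-574 were 4 in healthy 1 (932 RPM) and 2 in clinical 5 (702 RPM). Next came miR-2484, with 2 reads in subclinical 1 and 1 in clinical 5, and miR-2887, with 1 read each in healthy 3, subclinical 5 and clinical 1. The values of miR-11972 were 1 read each in healthy 3 and clinical 9.

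The 10 miRNAs listed under another species held 16 reads in all, 3 of them in subclinical 4. Besides miR-8485, the human entry miR-1260a held 1 read each in subclinical 6 and clinical 6. The other 8 held 1 read each: miR-203a-3p, miR-629-5p and the pig entry miR-186-5p in subclinical 4, miR-574-3p in healthy 4, miR-5684 in subclinical 1, miR-1972 in clinical 4, and the mouse entries miR-6238 in healthy 1 and miR-7116-5p in clinical 10. The human entry miR-574-3p and the pig entry miR-186-5p share a name with the bovine entries miR-574 and miR-186, so reads of 1 miRNA may be split between entries.

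Neighbouring genes were compared through a RefSeq gene table of the cattle assembly ARS-UCD2.0, used for names and order only because the authors' build is another. Of the 78 bovine names, 77 matched a miRNA gene there. Hairpins less than 10 kb apart formed 19 groups that hold at least 2 of the miRNAs, 35 miRNAs in all. In 15 of the 19 groups, each listed miRNA was above 0 in subclinical 4. Of the 35, 31 (88.6%) were above 0 there, against 33 (76.7%) of the 43 other bovine miRNAs. Examples are miR-106b, miR-93 and miR-25 with 1, 1 and 3 reads, miR-191 and miR-425-5p with 2 and 5, and miR-532 and miR-502a with 3 and 1. Exceptions were miR-183, beside miR-182 with 4 reads, miR-99b, beside miR-125a with 2, miR-19a, beside miR-92a with 9, and let-7b, which were at 0 in subclinical 4. A miRNA with several gene copies counts in each group, so these groups share reads. Being listed already made a read in subclinical 4 likely, as 64 of the 78 bovine miRNAs were above 0 there. Of all 88 miRNAs, 50 were above 0 in no other library. Neighbouring genes whose miRNAs are not listed were left out, so the counts above are no test of clusters.

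Lists of miRNAs known from cell types gave few reads. The milk and mammary list had 12 of 16 names among the listed entries. It held 7 reads in healthy, 8 in the other 6 subclinical, 76 in subclinical 4 and 3 in clinical libraries. Its summed level ran from 0 to 1048 RPM in healthy, 0 to 25384 RPM in subclinical and 0 to 362.9 RPM in clinical libraries, and without subclinical 4 the highest subclinical value was 880 RPM, in subclinical 5. The leukocyte list had 2 of 8 names listed, miR-181a and miR-181b, with 2 reads in subclinical 4 and 1 elsewhere, in subclinical 1. The epithelial list had 2 of 9 listed, miR-182 and miR-183, with 4 reads in subclinical 4 and 1 in subclinical 3. For the endothelial list miR-126-3p held 1 read, in subclinical 4. For the smooth muscle and mesenchymal list miR-143 held 2 reads in subclinical 4 and 1 each in subclinical 1 and healthy 1. The erythrocyte list had 0 of 3 names listed. A name that is not listed has no value in any library, subclinical 4 included. Vesicles carry no cells, and which cells released them was not tested.

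The comparisons between groups asked which vesicle miRNAs differ with udder health. All 126 entries entered limma's moderated test on log2(RPM + 1), and all 88 named miRNAs passed its filter of a mean of at least 1 RPM, 50 of them through subclinical 4 alone. In subclinical against healthy libraries, limma with Benjamini-Hochberg adjustment over 126 entries called 0 of the 88 at an adjusted p under 0.05, beside 0% of all entries. At an unadjusted p under 0.05 there were 2, miR-26a and miR-100, beside 4.76% of all entries. In clinical against healthy libraries it called 0 of the 88, beside 3.17% of all entries, and 0 at an unadjusted p under 0.05, beside 7.14%. In clinical against subclinical libraries it called 0 of the 88, beside 3.17% of all entries, and 2 at an unadjusted p under 0.05, again miR-26a and miR-100, beside 10.3%. Exact permutation tests per entry called 0 of the 88 in each comparison, at an adjusted or an unadjusted p under 0.05. Of all entries they called 0% adjusted and 3.97%, 7.94% and 7.14% unadjusted. The 0 of the 88 was fixed in advance, since each was above 0 in too few libraries for its permutation p to fall under 0.05.

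The smallest p among the 88 belonged to miR-26a, at 0 in all healthy and clinical libraries and above 0 in 3 of 7 subclinical libraries with 7, 1 and 1 reads. Its mean was 412 ± 859 RPM (SD, n = 7) in subclinical libraries, and limma's adjusted p was 0.342 against healthy and 0.257 against clinical libraries. For miR-100, also above 0 in 3 of 7 subclinical libraries and in no other, the mean was 174 ± 254 RPM (SD, n = 7), with limma's adjusted p of 0.342 and 0.257. After them came let-7f, above 0 in 2 of 7 subclinical libraries at a mean of 653 ± 1494 RPM (SD, n = 7), with limma's adjusted p of 0.342 and 0.319. Without subclinical 4 the subclinical means were 91.1 ± 142 RPM for miR-26a and for miR-100 and 93.4 ± 229 RPM for let-7f (SD, n = 6). The exact two-sided permutation p, unadjusted, was 0.192 for miR-26a and miR-100 and 0.462 for let-7f in both comparisons. These are the smallest values that test can give for entries above 0 in only 3 or 2 libraries of 1 group. No fitted size is given for these, since the group at 0 makes it depend on the pseudocount. The 2 comparisons share the subclinical libraries, so they are not separate evidence.

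In clinical against healthy libraries the smallest p was that of miR-1246, above 0 in 2 of 7 clinical and 0 of 7 healthy libraries, at a mean of 154 ± 327 RPM in clinical libraries (SD, n = 7; limma's adjusted p = 0.905). Next was miR-8485, above 0 in 1 of 7 clinical libraries (limma's adjusted p = 0.917). The miRNA with the most reads over all 21 libraries, miR-30a-5p, was at 150 ± 396 RPM in healthy, 1456 ± 3489 RPM in subclinical and 51.8 ± 137 RPM in clinical libraries (SD, n = 7 each). Without subclinical 4 its subclinical mean was 140 ± 241 RPM (SD, n = 6). That lies below the healthy mean, which rests on 1 read in the shallowest library, healthy 5 (1048 RPM per read). In reads, miR-30a-5p held 3 in the other 6 subclinical libraries and 1 in the healthy libraries. Its limma adjusted p, with all libraries, was 0.342 for subclinical against healthy, 1 for clinical against healthy and 0.319 for clinical against subclinical. For none of the 88 were the values of 2 groups free of overlap, beside 0%, 0% and 0.794% of all entries in the comparisons in the order above.

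Without subclinical 4 the table keeps 76 entries above 0, of which 38 are named miRNAs. Limma then called 0 of the 38 in each comparison at an adjusted p under 0.05, beside 0%, 6.58% and 5.26% of all entries in the same order. At an unadjusted p under 0.05 there were also 0 of the 38, beside 6.58%, 10.5% and 11.8% of all entries. Many of the tests repeat each other, since the 88 miRNAs have only 38 distinct sets of values over the 21 libraries. A p above the threshold does not show that the groups are alike, and with 1 read worth at least 104.3 RPM a change in an entry of this abundance could go unseen.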

How the data were processed

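Small RNA from milk extracellular vesicles was extracted with a miRNeasy kit and sequenced from TruSeq small RNA libraries, per the labels' protocols. Bowtie, edgeR and the build ARS-UCD1.2 appear in the submitters' processing notes. For trimming, the miRNA database and software versions, the sources used here say nothing. The authors deposited 1 table of RPM values, named TPM in it, in which each library sums to 1000000. Each value was divided by the smallest value above 0 of its library to give implied reads, and all 629 nonzero values (100%) came out whole to 0.01. Implied reads count only what fell on listed entries, so sequencing depth is unknown. The table is too short for the rule used here for treating them as counts, so no count model was run. An RPM value is a share, so a rise in one entry lowers the others.

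The test was limma-trend (limma 3.58.1, R 4.3.3) on log2(RPM + 1) with 21 libraries in 1 fit, two-sided, with Benjamini-Hochberg adjustment over entries averaging 1 RPM or more. It was tried on simulated data only for large changes in entries more abundant on average than any of these miRNAs. Its sensitivity at the level of these miRNAs was not checked. Exact permutations used 3432 regroupings (Python 3.11.15, NumPy 2.4.6, SciPy 1.17.1, pandas 2.3.3), and figures matplotlib 3.10.9. Clinical columns (CM in the table, M in the titles) were matched by number. Each of the 63 within-group pairs of libraries differed beyond counting noise (chi-square test of reads). Alternatives were pseudocounts of 0.1 and 10, other filters, median-of-ratios scaling, 2 groups per fit, each library left out, no variance trend, and a replicate block. The miRNAs and lists were chosen with earlier results of these data known. Values are named for miRNAs above 0 in at least 2 libraries, with at least 5 reads, with 1 of the 3 smallest p per comparison, leading a family or with another species' prefix. A few others were named for their gene group, cell type list or rank in subclinical 4 after their values were seen. Grouping by mature sequence was not done here.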

Additional observations from a re-analysis of the deposited data

Results flagged for a closer look

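Within groups of 7, a library was flagged where its gap to the nearest other was large against the group's range (Dixon's criterion at 95%). Chance flags about 1 in 20 such groups if values are normally distributed, which these sparse values are not. Flags fell on 17 of the 22 sets of values examined, 11 of them in subclinical 4. Family sums form part of the total, so the sets are not independent and the count is a description only. Of the 17, 8 have reads in 1 library of the group only, which meets the criterion by construction.

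Subclinical 4 lay far above the other subclinical libraries in the summed level of named miRNAs (72812 RPM) and in the number above 0 (67). The same held for let-7 (9352 RPM), miR-30 (15030 RPM), miR-23/24/27 (10688 RPM), the miR-17 and miR-92 clusters (5678 RPM), the list of miR-10, miR-99 and miR-100 with miR-125 (2672 RPM) and miR-26 (3340 RPM). It was the only subclinical library above 0 for miR-15/16 (1002 RPM), miR-29 (668 RPM) and miR-221 with miR-222 (1002 RPM).

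Among healthy libraries, healthy 4 was far above the rest for let-7 (952 RPM, 3 reads of let-7b). Healthy 5 was the only one above 0 for miR-30, the miR-17 and miR-92 clusters and the list of miR-10, miR-99 and miR-100 with miR-125 (1048 RPM each, 1 read each), and healthy 1 for miR-23/24/27 (233 RPM, 1 read). Clinical 10 was the only clinical library above 0 for miR-30 (362.9 RPM, 2 reads).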

How the results depend on the processing

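In the 30 alternatives per comparison, limma or exact permutation called 0 named miRNAs in each, and the lowest adjusted p of any was 0.0748. Exact permutation could not have called any, given how few libraries held each. Over all entries tested the share called ranged from 0% to 5.56% for subclinical against healthy, 0% to 19.4% for clinical against healthy and 0% to 5.56% for clinical against subclinical libraries, highest in each where only the 36 entries above 0 in at least 3 libraries were tested. The pooled rate of named miRNAs ranged from 432 to 801 RPM in healthy, 1485 to 13508 RPM in subclinical and 585 to 982 RPM in clinical libraries when each library was left out in turn. The subclinical low end is the rate without subclinical 4, and the next lowest was 11492 RPM. As means over libraries in place of pooled reads, the rates were 1062, 11662 and 797 RPM, where healthy 5, with 1048 RPM per read, raises the healthy value. With the replicate number as a block, limma called 0 named miRNAs in each comparison, beside 0%, 0% and 0.794% of all entries in that order. Same-numbered libraries come from different cows, and their deviations from the group means correlated at -0.0477 to 0.0867 for subclinical with healthy, -0.289 to -0.0403 for clinical with healthy and -0.114 to 0.209 for clinical with subclinical libraries. In 2 of 5 pairs of the last comparison, and 0 of 6 in the others, a library correlated best with its own number. Of the 37 miRNAs with reads in at least 2 libraries, at least 5 reads or another species' prefix, 10 changed the sign of an uncalled difference in some alternative, 60 of 63 times on leaving out a library. Median-of-ratios scaling used the 16 entries above 0 in all libraries. It changed the scaling between groups by -0.0306, 0.241 and 0.272 in log2 (subclinical against healthy, clinical against healthy, clinical against subclinical). Values of 0 do not scale, so these amounts do not apply to the named miRNAs, each above 0 in 5 libraries at most. Depth limits all of these: 3 reads correspond to 36.7 RPM over the 20 libraries other than subclinical 4 and to 313 to 3145 RPM in single libraries.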
